A study of Mus musculus with 24 samples.

Results

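Transcripts of 10 enzymes that remove superoxide and peroxides were followed across 24 mouse RNA sequencing libraries. They are the superoxide dismutase genes Sod1, Sod2 and Sod3, the glutathione peroxidase genes Gpx1, Gpx2, Gpx3, Gpx4, Gpx7 and Gpx8, and the catalase gene Cat. They were chosen by symbol, 10 of the 56691 genes in the deposited count table, and each was found once. The study induced endometriosis by surgery, so that lesions of uterine tissue grew outside the uterus, and asked how lesions and the uterus change as infertility develops. Each of 6 groups held 4 libraries of total RNA: lesions, the uterus of mice with endometriosis (eutopic uterus) and the uterus of sham-operated mice, at 1 month and at 3 months after surgery. Surgery took place at 8 weeks of age, all mice were mated, and all tissue came from pregnancy day 3.5.

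The strain background was mixed C57BL/6 and SV129. The labels give the genotype of lesions as Pgrcre/+Rosa26mTmG/+, a Cre driver under the progesterone receptor gene with a fluorescent reporter, and that of eutopic and sham uterus as Rosa26mTmG/+, the reporter alone. The series text instead gives the Cre driver for mice with endometriosis. By the labels, genotype and tissue cannot be told apart in any comparison with lesions. By the series text, genotype and surgery cannot be told apart in comparisons with sham uterus. Mice at 1 month and sham mice at 3 months are labelled fertile, and mice with endometriosis at 3 months subfertile. The mice were also older at 3 months. Nothing in the labels says which animal gave which library, so p-values measure the spread between samples. For each gene that spread was estimated over all groups of a fit together, not within the compared groups alone.

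Superoxide is a radical that leaks from mitochondria and is made on purpose by the NADPH oxidases of phagocytes. Superoxide dismutases turn it into hydrogen peroxide, which catalase splits in peroxisomes and glutathione peroxidases reduce at the expense of glutathione. In women, endometriotic lesions bleed repeatedly, and the iron of degraded heme makes peroxide more harmful, so these enzymes are often discussed in the disease. Bleeding of the mouse lesions was not tested here.

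Depth was similar throughout, with 45133642 to 59407134 counts per library, and mitochondrial transcripts took 2.03% to 4.10% of counts. Several lesion libraries carried transcripts of other organs. At 3 months, lesion library 1 held 24409 CPM (a gene's counts scaled to a common library size with TMM factors) of 8 ovarian steroid synthesis genes, against 17.7 to 22.1 CPM in eutopic uterus. Lesion libraries 2, 3 and 4 of that time held 54824, 17613 and 9698 CPM of 10 skeletal muscle genes, and eutopic uterus 113 to 172 CPM. In lesion library 2 at 1 month, 8 pancreas genes made up 90442 CPM, where eutopic libraries had 4.26 to 6.43 CPM. The 6 uterine marker genes, Hoxa10, Hoxa11, Pgr, Esr1, Hand2 and Msx1, were detected in all lesion libraries. They summed to 880 to 1450 CPM in lesions at 1 month and to 1608 to 1898 CPM in eutopic libraries. At 3 months they summed to 145, 150.2, 853 and 449.5 CPM in lesion libraries 1 to 4, against 1624 to 1865 CPM in eutopic uterus. Counts below are therefore given again without lesion library 2 at 1 month, or without lesion libraries 1 and 2 at 3 months. Lesion libraries 3 and 4, kept at 3 months, still held 17613 and 9698 CPM of skeletal muscle genes. Those refits are thus not free of other tissue.

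What distinguishes lesions from the eutopic uterus of the same time? Lesions carried more Sod3 at both times. At 3 months they also carried more Gpx3, Sod2 and Cat, and less Gpx7 and Gpx8. Calls rest on edgeR's quasi-likelihood test, with a Benjamini-Hochberg adjusted p over all genes tested below 0.05. At 1 month 1 of 10 enzymes was called, higher, where 12% of the 22249 genes tested were called higher and 8.76% lower (20.7% in all). At 3 months 6 of 10 were called, 4 higher and 2 lower, where 23.4% of all genes were called higher and 17.1% lower (40.5% in all). The median log2 fold change was -0.04 over the enzymes and -0.01 over all genes at 1 month, and 0.37 over the enzymes and 0.04 over all genes at 3 months. Lesion and eutopic libraries did not overlap for 2 enzymes at 1 month, Sod3 and Gpx2, while 31.6% of all genes did not overlap. They did not overlap for 6 enzymes at 3 months, against 23.9% of all genes. Without lesion library 2 at 1 month, 1 enzyme and 2707 genes were called. Without lesion libraries 1 and 2 at 3 months, 6 enzymes and 9452 genes were, with Gpx2 in and Cat out. The count at 1 month depended on the fit. Limma voom called 7 enzymes, 3 higher (Sod3, Gpx3 and Cat) and 4 lower (Gpx2, Gpx4, Gpx7 and Sod1). It called 10013 genes in all, against 4607 in edgeR. The compared groups alone in edgeR gave 4 enzymes, and the share of all genes called in that fit is not given here.

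**Figure D1:**
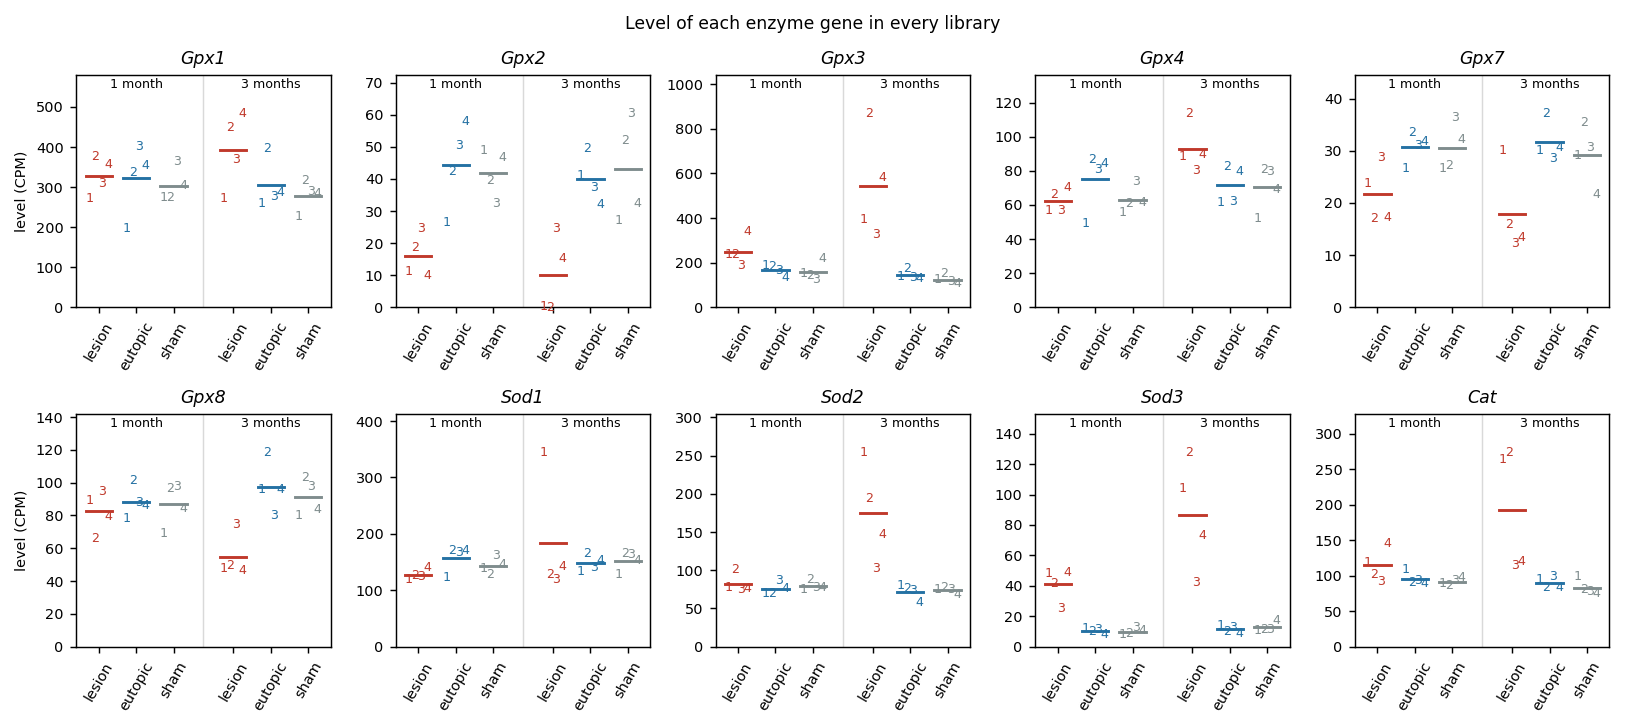
Level of each of the 10 enzyme genes (CPM, linear axes from 0) in every library, by tissue and time; digits are library numbers and bars are the means of 4 libraries. Sod3 stands at 25.3 CPM or more in the 8 lesion libraries and at 17.4 CPM or less in the 16 uterine libraries, and Gpx2 at 24.6 CPM or less in lesions and 26.4 CPM or more in the uterus.

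Among the superoxide dismutases, the secreted enzyme differed most. Sod3 (ENSMUSG00000072941.6) encodes the copper and zinc enzyme that leaves the cell and binds to the extracellular matrix. At 1 month it was at 48.0, 41.8, 25.3 and 49.1 CPM in lesion libraries 1 to 4, against 12.2, 10.3, 11.6 and 8.23 CPM in eutopic uterus and 7.70, 8.97, 12.3 and 10.8 CPM in sham uterus. All lesion libraries lay above all uterine libraries. Lesions differed from eutopic uterus by a log2 fold change of 1.96 ± 0.28 (SE), a 3.88-fold rise (edgeR, adjusted p = 0.000434), and 1.94 without lesion library 2. At 3 months Sod3 was at 104, 128, 42.1 and 72.9 CPM in lesions, against 13.9, 10.01, 12.9 and 8.76 CPM in eutopic uterus and 10.7, 11.4, 11.5 and 17.4 CPM in sham uterus. The groups were again apart, with the lowest lesion value, in library 3, still more than any uterine one. The log2 fold change over eutopic uterus was 2.93 ± 0.29, or 7.60-fold (adjusted p = 1.56e-06), and 2.31 without libraries 1 and 2.

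Macrophage genes, like Sod3, lay above the eutopic range in most lesion libraries, but not in library 1 at 3 months. The sum of 8 macrophage genes (Adgre1, Cd68, Csf1r, C1qa, C1qb, Mrc1, Marco and Msr1) was 783 to 1908 CPM in lesions at 1 month, against 279 to 362 CPM in eutopic uterus. At 3 months it was 192, 2834, 1639 and 3391 CPM in lesion libraries 1 to 4, against 233 to 354 CPM in eutopic uterus. Library 1, which also held 24409 CPM of ovarian steroid genes, had 104 CPM of Sod3. Its macrophage genes lay below those of every eutopic library of that time. Library 4 had the most macrophage RNA but 72.9 CPM of Sod3, against 128 CPM in library 2. Other cell types were raised as well: 6 T cell genes summed to 121 to 375 CPM in lesions at 1 month, against 30.6 to 37.8 CPM in eutopic uterus. The part of any cell type in the Sod3 level was not tested. All 8 macrophage genes were detected in each lesion library, and Marco was at 0 in 1 eutopic library of each time. In bulk tissue, more cells of a type and more RNA per cell cannot be told apart.

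Sod2 (ENSMUSG00000006818.6), the manganese enzyme of the mitochondrial matrix, rose in lesions at 3 months. It was at 254, 193, 103 and 147 CPM in lesion libraries 1 to 4, against 79.5, 76.0, 74.1 and 58.3 CPM in eutopic uterus and 74.3, 77.0, 75.1 and 68.0 CPM in sham uterus. All lesion libraries lay above all uterine ones, and libraries 1 and 2 were the highest. Over eutopic uterus the log2 fold change was 1.28 ± 0.19, or 2.42-fold (adjusted p = 4.2e-05), and 0.77 without libraries 1 and 2 (adjusted p = 0.00033). At 1 month Sod2 was at 76.9, 102, 74.7 and 75.8 CPM in lesions, against 69.8, 69.7, 87.1 and 75.9 CPM in eutopic uterus. These groups overlapped, and the log2 difference of 0.12 ± 0.18 was not called (adjusted p = 0.671, 95% interval -0.26 to 0.50). Sod2 was the 1 enzyme called in the test of whether the lesion to eutopic difference changed between the times, where 0.769% of all genes were called. The difference was larger at 3 months by 1.16 ± 0.26 on the log2 scale (adjusted p = 0.0389). That call was lost in 12 of 16 fits that left out 1 library (adjusted p up to 0.0961), and without libraries 1 and 2 the value was 0.67 (adjusted p = 0.0894).

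Sod1 (ENSMUSG00000022982.11), the copper and zinc enzyme of the cytosol, was not called at either time in the main fit. At 3 months it was at 344, 128, 119 and 142 CPM in lesion libraries 1 to 4, against 133, 165, 141 and 152 CPM in eutopic uterus. Library 1, the one with 24409 CPM of ovarian steroid genes, stood far above the others, and the other 3 lay within or below the eutopic range. The log2 difference was 0.31 ± 0.23 (adjusted p = 0.298) and turned to -0.19 without library 1. The part of ovarian tissue in the Sod1 level was not tested. Sod1 overlaps Scaf4, at 46.5 to 63.4 CPM, on the other strand. At 1 month Sod1 ranged from 119 to 141 CPM in lesions and from 123 to 171 CPM in eutopic uterus, a log2 difference of -0.31 ± 0.23 (adjusted p = 0.361). Limma voom called Sod1 lower at 1 month (-0.37, adjusted p = 0.00454).

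The glutathione peroxidases with selenocysteine in the active site did not move as a group. Gpx3 (ENSMUSG00000018339.13), the secreted form that circulates in plasma, rose at 3 months. It was at 396, 869, 326 and 582 CPM in lesion libraries 1 to 4, against 137, 176, 135 and 127 CPM in eutopic uterus and 123, 150.1, 115 and 105 CPM in sham uterus. All lesion libraries exceeded all uterine ones. The log2 fold change over eutopic uterus was 1.92 ± 0.26, or 3.78-fold (adjusted p = 1.98e-05), and 1.63 without libraries 1 and 2. At 1 month Gpx3 was at 236, 236, 186 and 341 CPM in lesions, against 188, 181, 164 and 133 CPM in eutopic uterus and 152, 145, 125 and 218 CPM in sham uterus. The groups overlapped by library 3 alone, and the log2 difference of 0.58 ± 0.25 was not called (adjusted p = 0.0968). The change of the difference between the times was 1.33 ± 0.35 and was not called in edgeR (adjusted p = 0.0745), but was in DESeq2 (1.37, adjusted p = 0.0123).

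Gpx2 (ENSMUSG00000042808.11), the form of gut and other epithelia, was lower in each of the 8 lesion libraries than in each of the 16 uterine libraries, but did not pass the test. At 1 month it was at 11.1, 18.5, 24.6 and 9.96 CPM in lesions, against 26.4, 42.2, 50.5 and 57.7 CPM in eutopic uterus and 48.8, 39.4, 32.4 and 46.6 CPM in sham uterus. At 3 months it was at 0.393, 0.0466, 24.4 and 15.4 CPM in lesions, against 41.1, 49.5, 37.3 and 32.0 CPM in eutopic uterus and 27.2, 51.9, 60.4 and 32.4 CPM in sham uterus. Lesion libraries 1 and 2 at 3 months held only 21 and 2 reads of it. The log2 difference from eutopic uterus was -1.46 ± 0.83 at 1 month (adjusted p = 0.216, 95% interval -3.19 to 0.27). It was -1.99 ± 0.85 at 3 months (adjusted p = 0.0659, 95% interval -3.75 to -0.23). Both errors rest on a spread of Gpx2 estimated over all 24 libraries, with lesion libraries 1 and 2 at 3 months among them. The interval at 1 month is thus not the spread of that time alone. Other tools called Gpx2: DESeq2 (adjusted p = 0.0492) and limma voom (adjusted p = 0.0434) at 3 months, and limma voom at 1 month (adjusted p = 0.00408). Without lesion libraries 1 and 2 at 3 months Gpx2 was called in edgeR as well, with a smaller difference of -1.03 ± 0.38 (adjusted p = 0.0382).

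Epithelial genes were scarce in the 2 libraries where Gpx2 was nearly missing. The sum of 6 epithelial genes was 116, 46.7, 804 and 611 CPM in lesion libraries 1 to 4 at 3 months, against 725 to 901 CPM in eutopic libraries. At 1 month it was 674 to 773 CPM in lesions, within the 647 to 1089 CPM of eutopic uterus. A ratio chosen after the values were seen, Gpx2 per 1000 CPM of epithelial genes, was 14.6 to 32.2 in lesions at 1 month, against 40.8 to 55.3 in eutopic uterus. It was 0.998 to 30.4 in lesions at 3 months, against 36.5 to 68.3 in eutopic uterus and 19.0 to 60.5 in sham uterus. On this ratio lesion and eutopic values did not overlap, and lesion and sham values overlapped at 3 months. Gpx2 alone already did not overlap between lesions and eutopic uterus, so the ratio adds no separate evidence. In lesion libraries 1 and 2 at 3 months the ratio rested on only 21 and 2 reads of Gpx2. The part of epithelial cells in the Gpx2 level was not tested. Gpx2 overlaps Fntb on the other strand in GENCODE M21, and Fntb was at 16.5 to 31.4 CPM over the 24 libraries. No source used here gives the strand setting of the counting, and reads of both genes may mix.

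**Figure D2:**
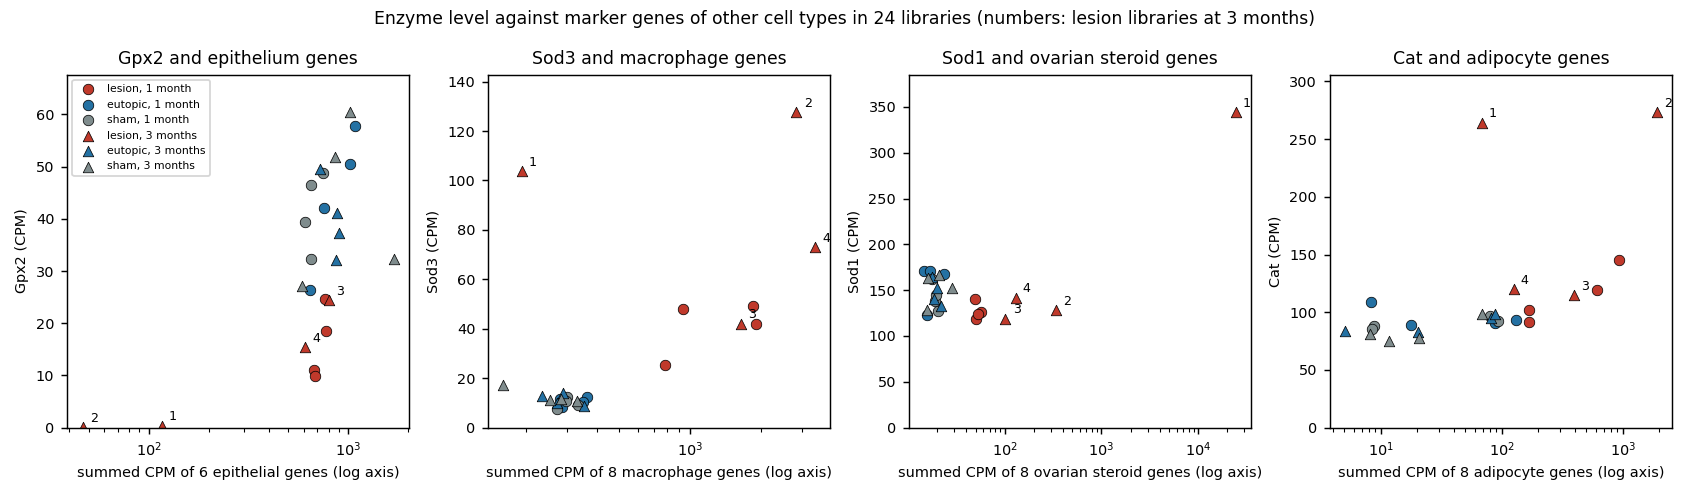
CPM of Gpx2, Sod3, Sod1 and Cat against the summed CPM of epithelial, macrophage, ovarian steroid and adipocyte marker genes (log axis) in 24 libraries; colour gives the tissue, circles 1 month and triangles 3 months, and digits the lesion libraries at 3 months. Lesion library 1 at 3 months holds 104 CPM of Sod3 beside 192 CPM of macrophage genes, and 344 CPM of Sod1 beside 24409 CPM of ovarian steroid genes.

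Gpx1 and Gpx4, the widely expressed forms, were called at neither time in the main fit. Gpx1 (ENSMUSG00000063856.9), the cytosolic and mitochondrial peroxidase that many cells rely on, was at 272, 376, 308 and 357 CPM in lesions at 1 month, against 197, 338, 400.5 and 354 CPM in eutopic uterus. At 3 months it was at 273, 448, 369.9 and 484 CPM in lesions, against 259, 395, 276 and 286 CPM in eutopic uterus. Both pairs of groups overlapped, with log2 differences of 0.03 ± 0.20 at 1 month (adjusted p = 0.94) and 0.37 ± 0.20 at 3 months (adjusted p = 0.149). Gpx4 (ENSMUSG00000075706.12), which reduces peroxidised phospholipids in membranes and so guards against ferroptosis, was at 57.0, 65.9, 56.9 and 70.0 CPM in lesions at 1 month, against 49.1, 86.7, 80.8 and 84.2 CPM in eutopic uterus. At 3 months it was at 88.4, 114, 80.1 and 89.3 CPM in lesions, against 61.6, 82.5, 62.0 and 79.9 CPM in eutopic uterus. Only lesion library 3 at 3 months lay inside the eutopic range, and the log2 difference of 0.38 ± 0.17 was not called (adjusted p = 0.0835). At 1 month it was -0.27 ± 0.17 (adjusted p = 0.273). Some other fits did call these genes. Limma voom called Gpx4 lower at 1 month (-0.37, adjusted p = 0.0307), as did edgeR without eutopic library 1 (-0.44, adjusted p = 0.0485). In 1 edgeR fit that left out a library, Gpx1 was called at 3 months (adjusted p = 0.0388). The pseudogene Gpx4-ps2 held 9.61% as many reads as Gpx4, which may have split its counts.

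The 2 peroxidases of the endoplasmic reticulum, Gpx7 and Gpx8, fell in lesions at 3 months. They carry cysteine in place of selenocysteine and use the peroxide that arises when disulfide bonds form in new proteins. Gpx8 (ENSMUSG00000021760.6) was at 47.5, 49.4, 74.7 and 46.6 CPM in lesion libraries 1 to 4, against 95.8, 118, 79.9 and 96.1 CPM in eutopic uterus and 79.9, 103, 97.9 and 83.5 CPM in sham uterus. All lesion libraries lay below all uterine ones, with library 3 close to the uterine range. The log2 fold change over eutopic uterus was -0.84 ± 0.16 (adjusted p = 0.000477), and -0.71 without libraries 1 and 2. Gpx7 (ENSMUSG00000028597.12) was at 29.9, 15.96, 12.3 and 13.4 CPM in lesions, against 30.05, 37.2, 28.5 and 30.6 CPM in eutopic uterus and 29.2, 35.4, 30.7 and 21.7 CPM in sham uterus. Library 1 lay within the eutopic range and the other 3 below all uterine values. The log2 fold change was -0.82 ± 0.23 (adjusted p = 0.0082), and -1.33 without libraries 1 and 2. The Gpx7 call was lost when only lesions and eutopic uterus of that time were fitted (adjusted p = 0.0849).

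At 1 month neither was called. Gpx8 was at 89.3, 66.1, 94.8 and 79.5 CPM in lesions, against 78.1, 101, 88.0 and 86.0 CPM in eutopic uterus, a log2 difference of -0.10 ± 0.16 (adjusted p = 0.696). Gpx7 was at 23.8, 17.1, 28.6 and 17.1 CPM in lesions, against 26.6, 33.5, 31.0 and 31.8 CPM in eutopic uterus, a log2 difference of -0.50 ± 0.23 (adjusted p = 0.123). Lesion and eutopic libraries overlapped for both genes. The change of the difference between the times was -0.74 ± 0.23 for Gpx8 (adjusted p = 0.119) and -0.31 ± 0.33 for Gpx7 (adjusted p = 0.743).

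Catalase rose in lesions at 3 months, but unevenly. Cat (ENSMUSG00000027187.11), whose product breaks down peroxide in peroxisomes, was at 264, 273, 115 and 120.1 CPM in lesion libraries 1 to 4, against 95.1, 82.7, 98.8 and 83.7 CPM in eutopic uterus and 98.3, 80.8, 77.9 and 75.2 CPM in sham uterus. All lesion libraries lay above the uterine ones, libraries 3 and 4 by little. Over eutopic uterus the log2 fold change was 1.10 ± 0.22, or 2.14-fold (adjusted p = 0.000637). Without libraries 1 and 2 it was 0.35 and no longer called (adjusted p = 0.0514). Library 1 held the ovarian steroid genes, and the 8 adipocyte genes summed to 1904 CPM in library 2 and to 5.08 to 87.2 CPM in eutopic uterus. The part of these tissues in the Cat level was not tested. At 1 month Cat was at 119, 102, 91.2 and 145 CPM in lesions, against 108, 91.0, 93.1 and 89.0 CPM in eutopic uterus, a log2 difference of 0.26 ± 0.22 that was not called (adjusted p = 0.413). In the highest of these, lesion library 4, adipocyte genes summed to 936 CPM, beside 8.22 to 131 CPM in eutopic libraries.

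**Figure D3:**
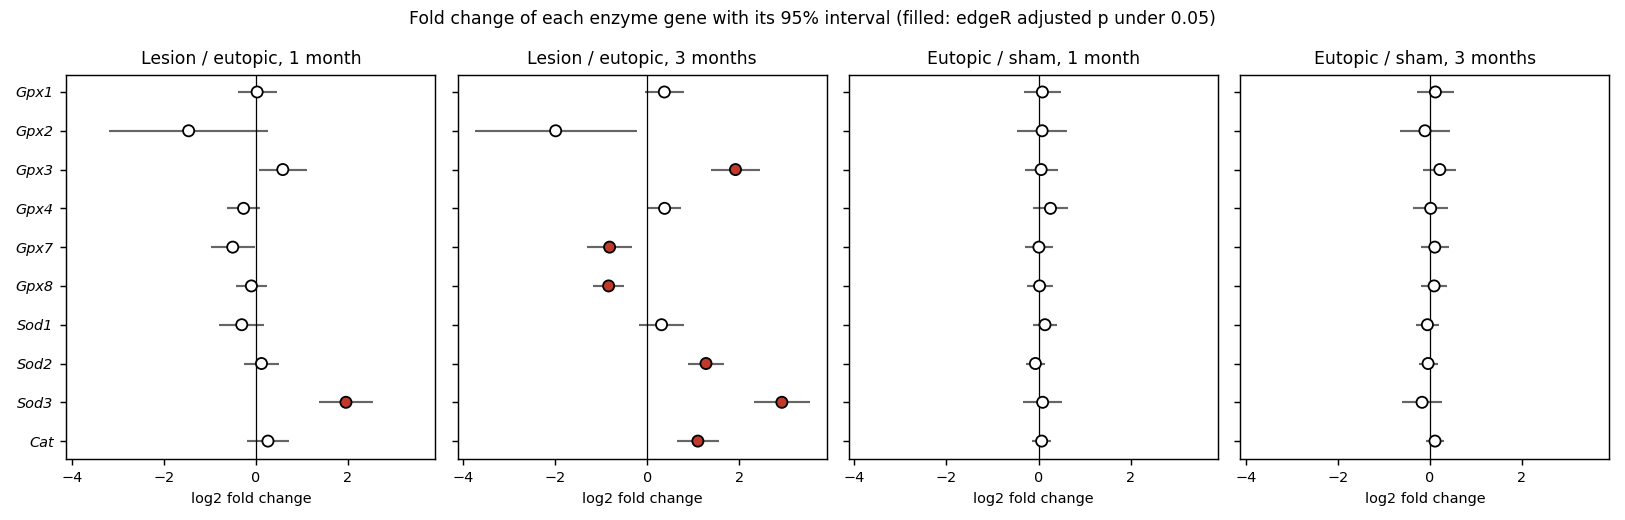
Log2 fold change of the 10 enzyme genes with 95% intervals for lesions over eutopic uterus and for eutopic over sham uterus, at 1 month and at 3 months; filled points have an edgeR adjusted p under 0.05. Sod3 is called at both times in lesions (1.96 and 2.93), 5 more enzymes are called at 3 months, and 0 are called between eutopic and sham uterus.

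Against sham uterus, lesions gave the same calls. These comparisons share the lesion libraries with those above, so they add no separate evidence. At 1 month Sod3 was called, with a log2 fold change of 2.05 ± 0.28 (15% of all genes were called). At 3 months 6 enzymes were called (41.6% of all genes were): Sod3 by 2.76 ± 0.29, Gpx3 by 2.14 ± 0.26, Sod2 by 1.24 ± 0.19, Cat by 1.22 ± 0.22, Gpx8 by -0.74 ± 0.16 and Gpx7 by -0.71 ± 0.23. The Gpx7 call was lost without lesion library 2, 3 or 4 or without sham library 2 (adjusted p = 0.0561, 0.0606, 0.0599 and 0.0615). Gpx1 (0.50 ± 0.20, adjusted p = 0.0542), Gpx2 (-2.09 ± 0.85, adjusted p = 0.0534) and Gpx4 (0.40 ± 0.17, adjusted p = 0.0669) were not called. DESeq2 called all 3 (adjusted p = 0.0356, 0.0368 and 0.0466). Without lesion libraries 1 and 2, edgeR called 8 enzymes, 5 higher and 3 lower, with Gpx1 and Gpx2 added, and 9252 genes in all.

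Did the uterus itself differ between mice with endometriosis and sham-operated mice? No difference was detected in these enzymes. In edgeR 0 of 10 enzymes were called at 1 month (0.00943% of 21208 genes were) and 0 at 3 months (0% of all genes). The smallest adjusted p was 0.876 at 1 month and 0.992 at 3 months, and 0 enzymes had an unadjusted p under 0.05 at either time (4.81% of all genes at 1 month and 4.77% at 3 months). DESeq2 and limma voom also called 0. The libraries of eutopic and sham uterus overlapped for all 10 enzymes at both times, while 3.53% of all genes did not overlap at 1 month and 1.72% at 3 months. At 1 month the differences ran from -0.07 ± 0.10 for Sod2 to 0.26 ± 0.18 for Gpx4 on the log2 scale, and at 3 months from -0.17 ± 0.20 for Sod3 to 0.22 ± 0.17 for Gpx3. The intervals leave room for moderate changes. For Sod2 the 95% interval was -0.27 to 0.14 at 1 month and -0.24 to 0.17 at 3 months, and for Gpx2 it was -0.46 to 0.62 and -0.64 to 0.43.

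Levels of different genes can be set side by side per length, here as CPM per kilobase of exon (mean ± SD, n = 4). The length of a gene was the union of all its annotated exons in GENCODE M21. That release is for build GRCm38, while the reads were mapped to mm39. Orders between genes depend on these lengths. In lesions at 3 months Gpx3 stood at 299.7 ± 134 and Gpx1 at 273 ± 65.1, and in eutopic uterus of that time Gpx1 stood at 211 ± 42.8, Gpx8 at 93.1 ± 15.1 and Gpx3 at 79.3 ± 12.1. In eutopic uterus at 1 month Gpx3 stood at 91.9 ± 13.6 and Gpx8 at 84.2 ± 9.09, so their order differed between the times, within their spread. Gpx3 stood below Gpx1 beyond their spread in eutopic uterus at both times, and within it in lesions at 3 months. The dismutases came in the order Sod1, Sod3, Sod2 in lesions at 3 months, at 46.1 ± 27.1, 23.2 ± 9.94 and 17.4 ± 6.46. The neighbours overlapped within their spread. The lengths used were 3970, 3738 and 10008 bases, and before division by length Sod2 exceeded Sod3 there (mean 174 and 86.6 CPM). In eutopic uterus the order was Sod1, Sod2, Sod3, at 37.2 ± 3.46, 7.19 ± 0.94 and 3.05 ± 0.645. Sod3 was therefore the least abundant dismutase in eutopic uterus. Over the 6 groups, the mean CPM of Sod3 was highest in lesions at 3 months and next in lesions at 1 month, whose ranges overlapped, and both stood apart from the 4 uterine groups.

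The enzymes work beside other redox genes, grouped in 6 lists with 53 distinct genes, 52 of them tested. In lesions against eutopic uterus 13 of the 52 rose and 4 fell at 1 month (32.7%, beside 20.7% of all genes), and 25 rose and 1 fell at 3 months (50%, beside 40.5%). Their median log2 fold change was 0.24 at 1 month and 0.55 at 3 months. Without lesion library 2 at 1 month, 8 rose and 2 fell, and without lesion libraries 1 and 2 at 3 months, 23 rose and 5 fell. These counts depended on the fit. At 1 month limma voom called 35 of the genes, edgeR on the compared groups alone 29, and fits leaving out 1 library 9 to 17 (9 without lesion library 4 or eutopic library 3). At 3 months the compared groups alone gave 15 rises and 0 falls. In the test of change between the times, 0 of the 52 were called in edgeR. In eutopic against sham uterus 0 of 51 were called at either time.

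Genes of enzymes that make superoxide or peroxide had the highest median of the 6 lists at both times. Of 9 tested, 6 rose and 0 fell at 1 month, and 8 rose and 0 fell at 3 months. Without lesion library 2 at 1 month, 4 rose and 1 fell, and with the compared groups alone at 3 months, 4 rose. Cybb, the catalytic core of the phagocyte NADPH oxidase, was at 24.3, 1789, 406 and 1419 CPM in lesion libraries 1 to 4 at 3 months, against 29.3 to 55.7 CPM in eutopic uterus. Ncf1, an organiser subunit of that oxidase, was at 4.57, 213, 105 and 240.2 CPM in lesions, against 9.40 to 21.4 CPM in eutopic uterus. Library 1, whose macrophage genes were also lowest, lay below the eutopic range for both. The log2 fold changes were 4.59 ± 0.77 for Cybb and 3.22 ± 0.66 for Ncf1 at 3 months (edgeR, adjusted p = 0.00015 and 0.000728), and Ncf1 was not called with the compared groups alone (adjusted p = 0.0527). At 1 month they were 3.38 ± 0.73 and 2.38 ± 0.63 (adjusted p = 0.00439 and 0.0129).

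The Nrf2 axis, the transcription factor encoded by Nfe2l2 with its partner Keap1 and target genes, had 10 genes tested. At 1 month 4 rose and 1 fell, and at 3 months 6 rose and 0 fell. Leaving out 1 library at 1 month gave 2 to 4 calls (2 without lesion library 4 or eutopic library 3). Hmox1, which degrades heme, was at 74.6, 144, 187 and 131 CPM in lesions at 3 months, against 12.7 to 19.1 CPM in eutopic uterus. These groups were apart, with a log2 fold change of 3.17 ± 0.29 (adjusted p = 6.56e-07). Slc7a11, which brings in cystine for glutathione, was at 10.4, 166, 113 and 72.1 CPM in lesions, against 6.31 to 34.96 CPM in eutopic uterus and 13.6, 25.7, 48.7 and 220.9 CPM in sham uterus. Lesion library 1 lay within the eutopic range, and sham library 4 above all lesion libraries. The log2 fold change over eutopic uterus was 2.11 ± 0.73 (adjusted p = 0.0259). It was not called without lesion library 2 (1.64, adjusted p = 0.0939), without eutopic library 2, 3 or 4 (adjusted p = 0.0768, 0.0536 and 0.0545) or with the compared groups alone (adjusted p = 0.0979). At 1 month Hmox1 rose by 1.86 ± 0.28 and Slc7a11 by 2.45 ± 0.74 (adjusted p = 0.000501 and 0.0247), and Gclm, the modifier subunit of the rate-limiting enzyme of glutathione synthesis, fell by 0.44 ± 0.14 (adjusted p = 0.0345). The Slc7a11 call at 1 month was lost without lesion library 4 or eutopic library 2 or 3 (adjusted p = 0.0556, 0.0734 and 0.072).

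Glutathione supply genes, several of which are also Nrf2 targets, showed 3 rises and 1 fall of 10 at 1 month and 5 rises and 0 falls at 3 months. At 1 month 1 rise was left without lesion library 2 or lesion library 4, while the compared groups alone gave 7 calls. At 3 months 3 rises were left without eutopic library 2 or 3. Pgd, which makes NADPH in the pentose phosphate pathway, rose by 0.47 ± 0.13 at 1 month (adjusted p = 0.0198). Glrx, a glutaredoxin, rose by 1.00 ± 0.23 at 3 months (adjusted p = 0.00168). Of 13 peroxiredoxin and thioredoxin genes, 0 rose and 1 fell at 1 month, the mitochondrial thioredoxin Txn2 (-0.31 ± 0.10, adjusted p = 0.0357). At 3 months 5 rose and 0 fell, and without lesion library 1, 6 rose and 2 fell. The peroxiredoxin Prdx5 was at 63.7, 169.9, 115 and 237 CPM in lesions, against 64.5 to 78.5 CPM in eutopic uterus (log2 fold change 1.02 ± 0.27). Srxn1, the sulfiredoxin that repairs peroxiredoxins, was at 41.9, 133, 54.1 and 77.6 CPM in lesions, against 35.7 to 44.3 CPM (1.01 ± 0.22, adjusted p = 0.00509 and 0.00141). Library 1 did not exceed the eutopic range for either, and neither was called with the compared groups alone (adjusted p = 0.0821 and 0.0726).

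Selenoprotein synthesis genes, needed for Gpx1 to Gpx4, showed 0 rises and 1 fall of 8 at 1 month and 2 rises and 1 fall at 3 months. Without lesion library 4 at 3 months, 3 rose and 2 fell. Pstk, the kinase that primes the selenocysteine transfer RNA, fell by 0.71 ± 0.14 at 1 month and by 0.50 ± 0.14 at 3 months (adjusted p = 0.00226 and 0.00687), the call at 3 months being lost with the compared groups alone (adjusted p = 0.0759). Selenop, the plasma selenium carrier, rose by 0.92 ± 0.28 at 3 months (adjusted p = 0.0127) and was not called without lesion library 2 (0.62, adjusted p = 0.0751) or with the compared groups alone (adjusted p = 0.0781). Lrp8, a receptor for that carrier, rose by 2.69 ± 0.69 (adjusted p = 0.00421), with 72.0 CPM in library 1 and 6.87, 9.97 and 13.3 CPM in the others, against 3.26 to 4.98 CPM in eutopic uterus. In sham uterus it was at 25.2 CPM in library 4, above 3 of the lesion libraries. Of 7 metal and peroxisome genes, 1 rose and 1 fell at 1 month, the copper pump Atp7a (0.96 ± 0.27) and the peroxisomal import receptor Pex7 (-0.56 ± 0.19, adjusted p = 0.0175 and 0.0377). At 3 months 2 rose and 0 fell, and Atp7a rose by 1.00 ± 0.27 (adjusted p = 0.00607). It was not called at 3 months without lesion libraries 1 and 2 (0.65, adjusted p = 0.0969). At 1 month Pgd, Gclm, Txn2 and Pex7 were not called without lesion library 2 (adjusted p = 0.0735, 0.0699, 0.0678 and 0.0903). Pgd was also lost without lesion library 4 or eutopic library 2, and Atp7a without eutopic library 2, 3 or 4. Gclm was also lost without lesion library 1 or 4 or eutopic library 1, 3 or 4, Txn2 without lesion library 1 or 4 or eutopic library 3 or 4, and Pex7 without lesion library 3 or 4 or eutopic library 2, 3 or 4.

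**Figure D4:**
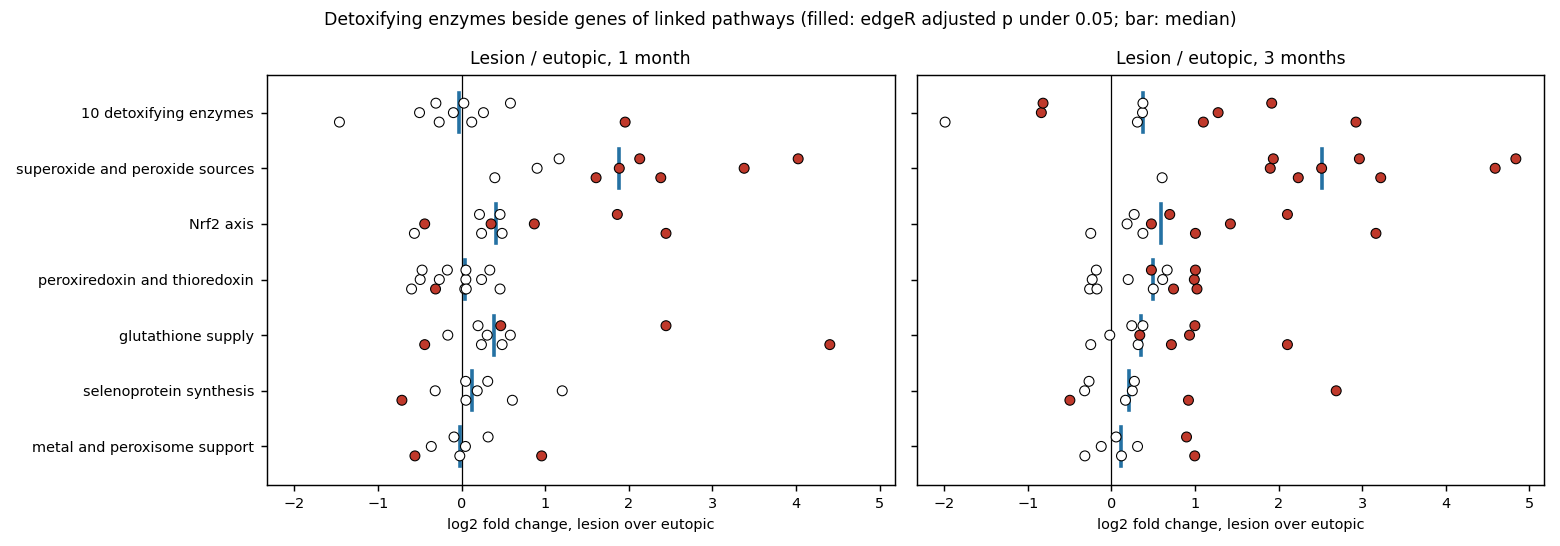
Log2 fold change of lesions over eutopic uterus at 1 month and at 3 months for the 10 enzymes and for the genes of 6 linked lists; each point is a gene, filled where the edgeR adjusted p is under 0.05, and bars are medians. Genes that make superoxide or peroxide have a median of 1.89 at 1 month and 2.52 at 3 months, and the 10 enzymes medians of -0.04 and 0.37.

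For each enzyme the protein-coding genes with the most similar profile were found by the root mean square difference of centred log2 CPM over the 24 libraries, among 15593 genes. Pdp1 was among the 2 genes nearest to Cat (0.16), and Sod2 lay nearest to Nfe2l1 (0.15) and Samd8 (0.18), and Gpx3 to Pld3 (0.26) and Ctsl (0.28). Sod3 lay nearest to Mbp (0.34) and Mlxipl (0.35), and Gpx2 to Tmprss2 (0.52) and Plekhs1 (0.53). Gpx8 lay nearest to Ppic (0.16) and Bcl2l12 (0.17), Gpx7 to Jam3 (0.14) and Adh5 (0.15), and Sod1 to Med10 (0.11) and Urod (0.12). Gpx1 lay nearest to Arpc3 (0.15) and Atp6v1f (0.15), and Gpx4 to Bola3 (0.10) and Atp6v1g1 (0.12). These distances are small for the genes that vary little: the SD of Gpx4 over the libraries was 0.29 and that of Gpx2 was 2.18 on the same scale.

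The sequences just before the starts of 5 genes are shown because they rose or fell together at 3 months. They are the 250 bases upstream of the annotated start in RefSeq (build GRCm38.p6), read on the gene's strand, and 9 of the 10 enzymes had an entry (not Sod3). Capitals mark matches, on either strand, to the GC box GGGCGG, the CCAAT box, the TATA box TATAAA, the antioxidant response element core TGACNNNGC and an NF-kB-like site (GGGA and CC with 4 bases between them). The rising genes were Gpx3 (chr11:54902604-54902853, plus strand), Sod2 (chr17:13007589-13007838, plus strand) and Cat (chr2:103485154-103485403, minus strand). The falling genes were Gpx7 (chr4:108406714-108406963, minus strand) and Gpx8 (chr13:113046389-113046638, minus strand).
Gpx3: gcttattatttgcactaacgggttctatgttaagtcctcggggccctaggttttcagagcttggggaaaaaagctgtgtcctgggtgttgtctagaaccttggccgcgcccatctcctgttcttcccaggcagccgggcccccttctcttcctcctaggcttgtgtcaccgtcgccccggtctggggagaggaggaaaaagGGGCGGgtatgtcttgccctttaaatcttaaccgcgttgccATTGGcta
Sod2: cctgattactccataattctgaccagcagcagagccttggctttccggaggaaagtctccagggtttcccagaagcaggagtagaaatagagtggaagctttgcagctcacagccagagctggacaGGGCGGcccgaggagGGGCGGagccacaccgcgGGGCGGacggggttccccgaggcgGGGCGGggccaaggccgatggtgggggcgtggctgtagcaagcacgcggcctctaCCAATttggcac
Cat: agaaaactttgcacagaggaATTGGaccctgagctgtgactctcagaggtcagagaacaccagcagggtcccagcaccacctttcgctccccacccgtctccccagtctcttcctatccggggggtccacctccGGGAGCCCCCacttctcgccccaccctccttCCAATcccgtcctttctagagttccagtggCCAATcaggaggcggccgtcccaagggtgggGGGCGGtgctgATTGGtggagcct
Gpx7: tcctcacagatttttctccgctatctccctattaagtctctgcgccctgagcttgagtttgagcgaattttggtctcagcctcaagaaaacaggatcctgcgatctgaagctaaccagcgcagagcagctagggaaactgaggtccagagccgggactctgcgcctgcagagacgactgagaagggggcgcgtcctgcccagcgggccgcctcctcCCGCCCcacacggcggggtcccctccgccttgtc
Gpx8: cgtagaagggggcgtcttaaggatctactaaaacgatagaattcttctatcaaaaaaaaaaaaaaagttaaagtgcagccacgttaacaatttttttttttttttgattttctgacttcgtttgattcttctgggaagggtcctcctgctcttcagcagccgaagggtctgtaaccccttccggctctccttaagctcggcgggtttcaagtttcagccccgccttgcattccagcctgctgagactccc

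The letters differed among the genes that rose. The Sod2 window held 4 GC boxes and 1 CCAAT box, the Gpx3 window 1 of each, and the Cat window 1 GC box, 4 CCAAT boxes and 1 NF-kB-like site. Of the falling genes, Gpx7 held 1 GC box and Gpx8 0 of the 5 motifs. The antioxidant response element core was in 0 of these 5 windows and in that of Sod1. Of 32851 windows of the same length, 32.7% held a GC box, 33.8% a CCAAT box, 12.4% a TATA box, 10.2% the antioxidant response element core and 17.6% the NF-kB-like site. A match is a description of the letters and shows no binding.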

How the data were processed

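Total RNA of 24 libraries was sequenced, and the authors deposited raw read counts per gene in 1 table. The submitters' processing notes name bcl2fastq 1.9.0, STAR 2.7.9a, the mm39 build and edgeR. No source used here gives the annotation release, the counting mode or the strand. Groups came from the sample labels, which name no batch. No 2 libraries held identical values.

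From the deposited counts, edgeR 4.0.16 in R 4.3.3 fitted group means by quasi-likelihood after filterByExpr and TMM scaling, over 22249 genes and 24 libraries. Eutopic against sham uterus was fitted on the 16 uterine libraries (21208 genes). Within each fit, all groups shared an estimate of each gene's spread, although lesions varied more for some genes. The SD of Sod2 at 3 months was 64.6 CPM in lesions and 3.91 CPM in sham uterus. CPM use the TMM factors, and log2 CPM a prior count of 2. DESeq2 1.42.0, limma 3.58.1 voom with sample weights, other scaling, no filter, other samples, a replicate block and leaving out each library were alternatives. The scripts were tested on simulated data. Replicate numbers were not treated as pairs, since no comparison had every same-numbered pair correlating above 0.1. Errors are SE of log2 fold changes. All 10 enzymes are named, and from each linked list up to 2 called genes a direction with the largest change and a mean log2 CPM of at least 1. The enzymes and lists were chosen with earlier results of these data known. 1 named gene is not reported here.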

Additional observations from a re-analysis of the deposited data

Results flagged for a closer look

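Of 60 sets of 4 libraries (10 enzymes in 6 groups), 6 had a library far from the other 3 by Dixon's test, where chance gives about 3. In lesions at 3 months, Sod1 was at 344 CPM in library 1 (next 142 CPM) and Gpx8 at 74.7 CPM in library 3 (next 49.4 CPM). In lesions at 1 month, Sod2 was at 102 CPM in library 2 (next 76.9 CPM), the library with 90442 CPM of pancreas genes. In eutopic uterus at 1 month, library 1 was low for Gpx4, at 49.1 CPM (next 80.8 CPM), and for Sod1, at 123 CPM (next 167 CPM). In sham uterus at 3 months, Sod3 was at 17.4 CPM in library 4 (next 11.5 CPM).

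The lesion to eutopic difference of Sod2 was larger at 3 months than at 1 month, by 1.16 on the log2 scale (edgeR, adjusted p = 0.0389). That call was lost in 12 of 16 edgeR fits that left out 1 library. It was also lost without lesion libraries 1 and 2 at 3 months (0.67, adjusted p = 0.0894).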

How the results depend on the processing

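Of 1110 refitted log2 fold changes of the enzymes, 1001 kept their direction and side of the threshold, 40 became called, 22 lost the call and 47 changed sign, all 47 of enzymes not called. Other scaling moved 0 of 120 mean CPM values beyond 1 SD. Where a count moved by over 1.5 times, the cause was not tested.

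For lesions against eutopic uterus at 1 month, limma voom called 7 enzymes and 10013 genes, against 1 and 4607 in edgeR. With the compared groups alone, edgeR called 4 enzymes. The number of all genes called in that fit is not given here, so its counts of enzymes and linked genes lack a background. Leaving out 1 library gave 1 to 2 enzymes (2 without eutopic library 1) and 2595 to 4705 genes. At 3 months the compared groups alone gave 3267 genes, against 9013. For lesions against sham uterus at 1 month, voom called 3 enzymes and 7695 genes and the compared groups alone 2 and 5889, against 1 and 3336, and leaving out 1 library gave 1720 to 3250 genes. At 3 months the compared groups alone gave 2600 genes, against 9257. For the change between the times (1 enzyme, 171 genes), DESeq2 called 2 enzymes and 822 genes, voom 468 genes, no filter 0 enzymes, the compared groups alone 0 enzymes and 10 genes, and fits without lesion libraries 1 and 2 gave 0 enzymes and 274 genes. Leaving out 1 library gave 0 to 5 enzymes and 14 to 990 genes. For eutopic against sham uterus, DESeq2 called 15 genes and voom 39 at 1 month, against 2, and at 3 months DESeq2 called 11, voom 4 and the compared groups alone 2, against 0.

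These log2 differences changed sign. In lesions against eutopic uterus, Gpx1 was -0.10 with voom at 1 month and -0.16 to 0.14 leaving out 1 library, and Sod2 -0.0072 to 0.19. At 3 months Sod1 was -0.17 with voom, -0.21 without lesion libraries 1 and 2 and -0.19 to 0.47 leaving out 1 library. In lesions against sham uterus at 1 month, Gpx4 was 0.019 with voom and -0.073 to 0.075 leaving out 1 library, Gpx8 -0.17 to 0.012 and Sod2 -0.067 to 0.11. At 3 months Sod1 was -0.30 with voom, -0.26 without lesion libraries 1 and 2 and -0.24 to 0.42 leaving out 1 library. The change of Gpx2 between the times was 0.45 without lesion libraries 1 and 2. In eutopic against sham uterus with voom, Gpx3 was -0.20, Sod3 -0.046 and Cat -0.025 at 1 month, and Gpx4 -0.15, Gpx7 -0.049 and Gpx8 -0.079 at 3 months. Leaving out 1 library at 1 month gave -0.034 to 0.27 for Gpx1, -0.075 to 0.27 for Gpx2, -0.045 to 0.24 for Gpx3, -0.051 to 0.10 for Gpx7, -0.071 to 0.082 for Gpx8 and -0.013 to 0.21 for Sod3. At 3 months it gave -0.026 to 0.20 for Gpx1, -0.27 to 0.11 for Gpx2, -0.099 to 0.10 for Gpx4, -0.0088 to 0.22 for Gpx7, -0.0089 to 0.18 for Gpx8, -0.12 to 0.0023 for Sod1, -0.081 to 0.056 for Sod2 and -0.27 to 0.026 for Sod3.

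With the replicate number as a block, 1 enzyme was called in lesions against eutopic uterus at 1 month and 8 at 3 months. Against sham uterus 1 and 9 were called, for the change between the times 1, and in eutopic against sham uterus 0. Without the block, lesions against eutopic uterus gave 20.7% of all genes at 1 month and 40.5% at 3 months. Against sham uterus the shares were 15% and 41.6%. The share of all genes under the block is not given here. Same-numbered lesion and eutopic libraries correlated by 0.0735 to 0.191 at 1 month (4 of 4 best with their own number) and by 0.00343 to 0.337 at 3 months (3 of 4). This is a hint of pairing from the data, not from the design, and not every pair passed 0.1. The calls added under the block at 3 months were Gpx2 (adjusted p = 0.0435) and Gpx4 (adjusted p = 0.0285) against eutopic uterus, and Gpx1, Gpx2 and Gpx4 against sham uterus.

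Other organs' transcripts in lesions, 4 libraries a group and the unknown strand setting limit these values. Alternatives without the doubted libraries and the linked lists' refits were added after seeing the data. Of 320 refits of 16 named linked genes, 277 kept the call, 43 lost it and 0 changed sign.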
